A study of Mus musculus with 3 samples.

Results

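IgD-positive B cells were examined among live CD45+ leukocytes sorted from the pancreatic islets of NOD mice, a strain that develops spontaneous autoimmune diabetes. The cells were chosen by measured counts. A cell was taken as IgD-positive when its raw unique molecular identifiers (UMIs, 1 per captured transcript) numbered at least 2 for Cd79a, at least 1 for Ms4a1 and at least 1 for Ighd, with at most 2 for Jchain and 0 for Cd3d, Cd3e, Cd3g, C1qa and C1qb. Cells needed at least 1000 UMIs and less than 10% of them from mitochondrial genes. The gate found 2804 cells among the 26947 in the series, 956 in replicate 1, 1119 in replicate 2 and 729 in replicate 3. All 3 samples were wild-type NOD females, with no treatment given in the labels, and by the study's methods each pooled islets of 2 to 3 mice aged 15 to 16 weeks. These samples held 1 genotype and no treatment groups, so the comparisons were made between cell classes within each sample. The B cells that passed the same gate with 0 Ighd UMIs are called IgD-negative here and numbered 342, 268 and 217. T cells had at least 2 Cd3 UMIs and 0 of Cd79a, Ms4a1 and Ighd, and numbered 2819, 5755 and 8162.

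IgD is the heavy chain that a mature naive B cell makes next to IgM. Both chains are spliced from a single primary transcript over the same variable region, and both pair with the Cd79a and Cd79b signalling chains to form the antigen receptor. Follicular B cells, the recirculating naive population of spleen and lymph node, carry IgD with CD23 (Fcer2a), CD21 (Cr2) and the follicle-homing receptor CXCR5. Both constant regions lie side by side, Ighd at chr12:113406604-113416324 and Ighm at chr12:113418558-113422730 on the minus strand of GRCm38. A B cell that switches class deletes the Ighd exons and puts IgG, IgA or IgE in their place. In NOD mice B cells enter inflamed islets and can present islet antigen to T cells.

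Ighd itself chose the cells, so its level is a description. In the UMIs summed per library it reached 528, 476 and 501 CPM (counts scaled to a common library total) in replicates 1, 2 and 3. Single cells held few copies. In replicate 1, 294 cells had exactly 1 Ighd UMI, 426 had 2 to 3 and 236 had 4 or more, and the highest cell had 10. The highest cells of replicates 2 and 3 had 20 and 19. Among T cells gated without regard to Ighd, thinned at random to 2000 UMIs per cell, 0.803%, 0.631% and 0.34% had an Ighd UMI, against 52.5%, 49.4% and 50.3% of all gated B cells. Median depth before thinning was 3899, 6146 and 5363 UMIs in those T cells and 4172.5, 6803 and 5897 in the IgD-positive B cells, so the depth of the classes was similar. These percentages carry counting error only in their intervals, and the T-cell share of replicate 1 had a 95% exact binomial interval of 0.504% to 1.21%.

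IgD-positive cells made up most gated B cells in every library. Their share was 73.7% in replicate 1, 80.7% in replicate 2 and 77.1% in replicate 3, a mean of 77.1% ± 3.51 (SD, n = 3). The share differed with the depth of the cells, rising with it in replicates 2 and 3 but not in replicate 1. In replicate 2 it was 63.9% among cells with 1000 or more but under 4000 UMIs, 80.4% among cells with 4000 or more but under 8000 and 83.9% among cells with 8000 or more, while in replicate 1 the corresponding shares were 72.3%, 77.5% and 62.7%. When every cell was thinned to 2000 UMIs and gated again, 51.2%, 51.2% and 50.3% of gated B cells were IgD-positive. Of the cells called IgD-positive at full depth, 70.9%, 61.1% and 65.2% kept an Ighd UMI after thinning, so a count of 0 did not separate cells without IgD from cells in which it was not captured, and the IgD-negative class may hold both. The IgD-positive cells were 16.7%, 12.2% and 6.5% of all cells past the quality limits. Among cells with the B-cell genes, the step that required 0 Cd3 UMIs left 1300 of 1860, 1388 of 2256 and 947 of 1696 cells, and 1356, 1834 and 1319 IgD-positive cells would have remained before the Cd3 and C1q limits.

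Replicate 1 stood apart from replicates 2 and 3. Its IgD-positive cells had a lower median depth, a median of 2.11% mitochondrial UMIs against 4.48% and 4.07%, and more insulin RNA, with Ins2 at 43.3 CPM against 9.56 and 1.38 CPM. Over the 4920 genes with a mean of at least 20 CPM, 58 were more than 2-fold higher and 66 more than 2-fold lower in replicate 2 than in replicate 1, whereas only 4 and 9 differed so between replicates 3 and 2. The study ran its samples in 2 experiments, and the labels do not say which sample belongs to which. A batch and the sampled mice therefore cannot be told apart. The libraries shared 12, 18 and 29 cell barcodes in pairs, and 1 shared barcode fell among IgD-positive cells in both libraries of a pair.

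The cells carried some markers of follicular B cells. All 11 genes of a naive follicular list were detected, but so they were in IgD-negative B cells and in T cells. The list summed to a mean of 1913 CPM in IgD-positive cells, 1690 CPM in IgD-negative cells and 1635 CPM in T cells. Fcer2a and Cr2 were above T cells by 7.48 ± 0.14 and 6.57 ± 0.22 on the log2 scale (SE). Of the 11 genes 6 were higher than in T cells, 3 lower (Ccr7, Klf2 and Il4ra) and 2 not called. Over all genes tested against T cells, 24.5% were higher and 28.2% lower. Fcer2a encodes CD23, the low-affinity IgE receptor. Its promoter and that of Cr2 are shown because these receptor genes define the follicular label, and both were higher in IgD-positive than in IgD-negative cells. Each line gives the 250 bases before a RefSeq start site (build GRCm38.p6), 5′ to 3′ on the minus strand, which is the strand of both genes. Capitals mark the letters CAGGTG or their reverse complement, the core of an E-box that E-protein factors such as Tcf3 can bind.

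Fcer2a, start site 2 of 3, chr8:3690862-3691111: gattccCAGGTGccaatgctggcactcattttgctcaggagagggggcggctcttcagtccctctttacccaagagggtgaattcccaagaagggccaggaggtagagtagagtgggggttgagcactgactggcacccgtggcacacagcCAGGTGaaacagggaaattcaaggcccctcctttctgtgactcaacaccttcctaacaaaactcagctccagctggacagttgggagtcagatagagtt

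Cr2, chr1:195176720-195176969: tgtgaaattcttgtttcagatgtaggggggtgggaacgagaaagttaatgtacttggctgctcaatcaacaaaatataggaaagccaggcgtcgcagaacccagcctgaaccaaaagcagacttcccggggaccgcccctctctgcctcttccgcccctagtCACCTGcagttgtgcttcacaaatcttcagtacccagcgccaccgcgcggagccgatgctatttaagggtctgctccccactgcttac

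The letters CAGGTG, read on both strands, began 244 and 99 bases before the Fcer2a start and 88 bases before the Cr2 start. The other 2 Fcer2a start sites had none in the same window. The motif was common, present in 17.2% of all 32851 promoters of that length and in 16.7% of the 102 promoters found for 68 of the 87 genes that were higher in IgD-positive than in IgD-negative cells. A match is a description of these letters, and no binding was measured here.

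The naive follicular genes leaned towards the IgD-positive class. Fcer2a was at 170, 78.9 and 80.1 CPM in IgD-positive cells, 118, 59.8 and 58.9 CPM in IgD-negative cells and below 1 CPM in T cells. It was higher in IgD-positive cells within each library, although the classes overlapped across libraries because replicate 1 was high in both. Cr2, the complement receptor CD21 that lowers the threshold of the antigen receptor, was at 98.4, 63.1 and 62.5 CPM against 63.5, 48.8 and 33.4 CPM. It too was higher in IgD-positive cells within each library, and replicate 1 of the IgD-negative class reached the level of the lower IgD-positive libraries. The fold changes over IgD-negative cells were 0.48 ± 0.09 (log2, SE) for Fcer2a (adjusted p = 0.0049) and 0.63 ± 0.12 for Cr2 (adjusted p = 0.0036). Foxp1, a transcription factor of naive B cells, was at 646, 557 and 559 CPM against 552, 405 and 342 CPM. Zfp318, which is needed for IgD to be made from the shared IgM and IgD transcript, was at 89.1, 66.8 and 71.4 CPM against 65.1, 35.1 and 58.2 CPM. Both passed the test, at 0.48 ± 0.08 (adjusted p = 0.0023) and 0.57 ± 0.12 (adjusted p = 0.01). Zfp318 is not independent of the gate, since the Ighd transcript that it helps to make chose the cells. In all, 5 of the 11 genes rose and none fell, and Ccr7, Cxcr5, Klf2, Bach2, Btla and Il4ra did not pass. The median log2 fold change of the list was 0.43, against 0.00312 over all genes tested, of which 0.921% were higher in IgD-positive cells. Fcer2a, Cr2 and Foxp1 lost their calls without replicate 3, at log2 changes of 0.48, 0.52 and 0.36, and Zfp318 lost its call without replicate 2, at 0.39. When IgD-negative cells with more switched than Ighm UMIs were left out, Fcer2a, Cr2, Foxp1 and Zfp318 did not pass, at 0.21, 0.34, 0.23 and 0.39.

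**Figure D1:**
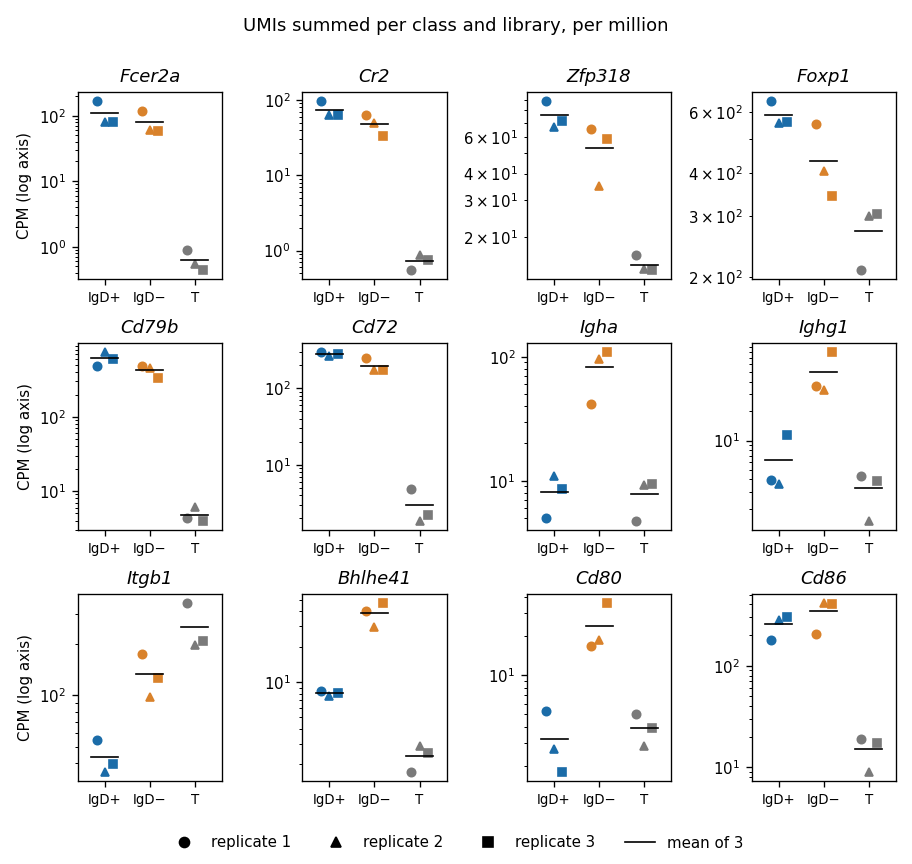
Level of 12 genes in IgD-positive B cells, IgD-negative B cells and T cells, in CPM (log axis); each point is 1 library and the bar is the mean of 3. Zfp318, Foxp1 and Cd72 were higher in every IgD-positive library than in every IgD-negative library, and Igha, Ighg1, Itgb1, Bhlhe41 and Cd80 were lower in every one.

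By the share of cells, Fcer2a was found in 28.1%, 15.1% and 14.4% of IgD-positive cells thinned to 2000 UMIs and in 45.1%, 35.2% and 34.4% before thinning. The thinned shares were 18.8%, 12.4% and 10.2% in IgD-negative cells, and 0.186%, 0.105% and 0.136% in T cells, which do not express the gene. Because most cells held no Fcer2a UMI, these shares are of cells with a captured transcript and not of cells expressing the gene.

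Of 9 transitional and immature genes, 4 were at 0 in the IgD-positive cells. Rag1, Rag2, Dntt and Igll1, which mark B-cell precursors, had 0 UMIs in the 2804 cells, which allows up to 0.107% of cells with a UMI of each. Vpreb1, another precursor gene, was at 0, 0.117 and 0.593 CPM, and Cd93, a marker of immature transitional cells, was at 2.31, 1.63 and 1.19 CPM. Cd1d1 and S1pr3, which mark marginal zone B cells, stayed at 5.25 to 12.8 CPM, and Dtx1, a Notch regulator on the same list, was at 42, 68 and 58.9 CPM. Cd24a was at 138, 79.4 and 92.1 CPM and Vpreb3 at 139, 65.1 and 63.3 CPM, and neither of these 2 transitional genes passed the test between the B-cell classes. Between the B-cell classes 2.56% of all genes tested were lower in IgD-positive cells and 0.921% higher. Of the 4 marginal zone genes tested only Cd9 passed, and it was lower in IgD-positive cells at 21.4, 14.3 and 22.5 CPM against 28.4, 62.6 and 45.4 CPM (log2 change -1.24 ± 0.22, adjusted p = 0.0023). Of 11 plasma cell genes tested, 10 were not called, among them Mzb1, an immunoglobulin chaperone, at 371, 217 and 241 CPM. The one called was Irf4, a factor that rises with activation and plasma cell commitment, at 85.8, 67.7 and 79.3 CPM against 101, 153 and 133 CPM (log2 change -0.72 ± 0.12, adjusted p = 0.002).

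Few genes were called between the B-cell classes. Of 9450 genes tested with edgeR on the library sums, 329 (3.48%) passed an adjusted p of 0.05. Of these, 87 were higher and 242 (2.56%) were lower in IgD-positive cells. The count rested on individual libraries. It was 505 without replicate 1 (222 higher and 283 lower), 288 without replicate 2 and 123 without replicate 3 (21 higher and 102 lower). Without library as a block, no gene was called higher and 20 were called lower, and DESeq2 called 20 higher and 76 lower. In IgD-negative cells from which those with more switched than Ighm UMIs had been left out, 18 were higher and 55 lower. With the gate applied to thinned cells 28 were higher and 62 lower, and with the study's cell filter 11 and 25.

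**Figure D2:**
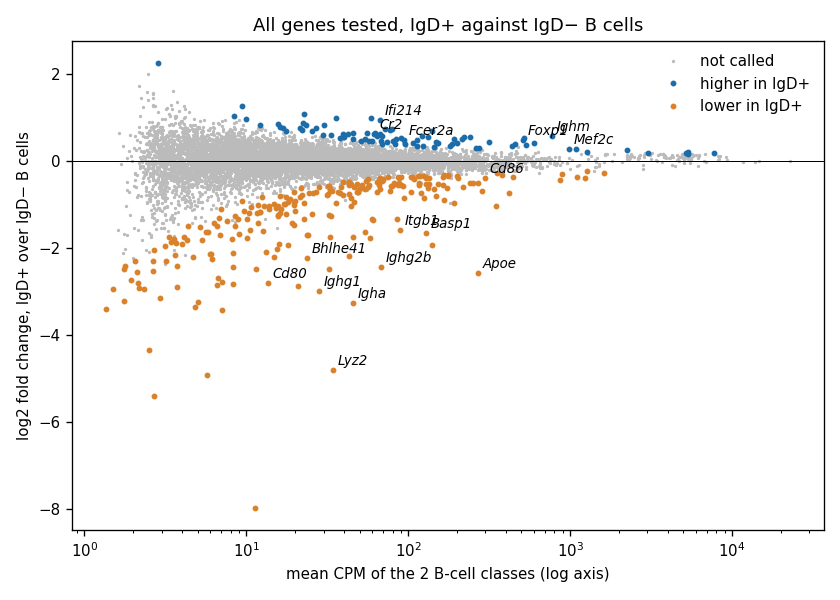
Log2 fold change of IgD-positive over IgD-negative B cells against the mean CPM of both classes (log axis), 1 point per gene for the 9450 genes tested. Of the 87 genes called higher, 83 lie under 1 on the log2 scale, while those called lower include Lyz2 at -4.80. The fall of Lyz2 is a description.

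Switched immunoglobulins fell together. Igha, the IgA heavy chain, was at 5.04, 11 and 8.5 CPM in IgD-positive cells against 41.7, 96.6 and 110 CPM in IgD-negative cells. Ighg1 was at 3.99, 3.61 and 11.3 CPM against 36.2, 32.9 and 80.9 CPM, and Ighg2b at 25.2, 12.7 and 28.3 CPM against 106, 133 and 102 CPM. No library overlapped for any of these 3 genes. The log2 changes were -3.27 ± 0.15 for Igha, -2.99 ± 0.17 for Ighg1 and -2.43 ± 0.19 for Ighg2b. A switched cell has deleted the Ighd exons, so the Ighd gate bound the direction of these genes. Their fall is therefore a description. All 5 switched chains tested fell, Ighg2c and Ighg3 included, with a list median of -2.43, beside 2.56% of all genes tested called lower and a median of 0.00312. In IgD-positive cells the level of Igha was close to that in T cells, which were at 4.7, 9.25 and 9.46 CPM (log2 change over T cells 0.14 ± 0.16, adjusted p = 0.5). Ighg2b was above T cells at 1.73 ± 0.16 (edgeR adjusted p = 0.00017). Ighg1 was above them at 1.08 ± 0.32 (adjusted p = 0.027), though slightly lower in replicate 1. Of the 5 switched chains tested against T cells 3 were higher and none lower, beside 24.5% of all genes tested called higher. Per cell, switched UMIs outnumbered Ighm UMIs in 1.15%, 1.34% and 2.06% of thinned IgD-positive cells and in 11.3%, 20.3% and 15.7% of IgD-negative cells.

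Antigen receptor genes leaned the other way. Cd79b, the partner of Cd79a, was at 479, 758 and 611 CPM against 492, 453 and 338 CPM. Ighm was at 921, 901 and 868 CPM against 1014, 523 and 407 CPM. For both genes replicate 1 was slightly lower in IgD-positive cells while replicates 2 and 3 were higher. Ighm is not independent of the gate, since it shares its transcript with Ighd. Cd72, an inhibitory coreceptor, was at 301, 262 and 283 CPM against 247, 171 and 171 CPM, without overlap. The fitted changes were 0.54 ± 0.12 for Cd79b (adjusted p = 0.014), 0.59 ± 0.15 for Ighm (adjusted p = 0.031) and 0.56 ± 0.09 for Cd72 (adjusted p = 0.0013). The inhibitory receptors Cd22 (0.39 ± 0.10, adjusted p = 0.037) and Siglecg (0.46 ± 0.11, adjusted p = 0.026) also rose. These 5 of 20 genes in the antigen receptor and signalling list were the only ones called, none fell, and the list median was 0.15, beside 0.921% of all genes tested called higher and a median of 0.00312. The kinases and adaptors of the pathway, among them Syk, Lyn, Btk and Blnk, did not pass. Without replicate 3, Cd79b, Ighm, Cd72, Cd22 and Siglecg all lost their calls, at 0.37, 0.33, 0.47, 0.41 and 0.44, Siglecg was also lost without replicate 2 at 0.32, and Cd22 was lost without any of the 3 and without B cells holding a macrophage UMI, at 0.33. Cd72, Cd22, Siglecg and Cd79b were also lost when switched IgD-negative cells were left out, at 0.30, 0.31, 0.36 and 0.50, a setting that cannot test Ighm because Ighm helps to select those cells.

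Most IgD-positive cells used the kappa light chain. In cells thinned to 2000 UMIs, Igkc outnumbered the summed lambda constant genes in 94.6%, 93.4% and 91.8% of IgD-positive cells, and lambda led in 4.09%, 3.22% and 4.12%. None of the 4 light chain genes passed the test. Igkc was at 5355, 4562 and 4433 CPM against 6036, 4130 and 3707 CPM, and passed at a log2 change of 0.24 when replicate 1 was left out. Ighm was detected in 76.8%, 75.1% and 69.5% of thinned IgD-positive cells, and in 66.9%, 48.9% and 45.4% of IgD-negative cells.

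Some genes of memory and B1 cells were lower in IgD-positive cells. Bhlhe41, a transcription factor that sustains B1 cells, was at 8.41, 7.58 and 8.11 CPM against 40.1, 29.6 and 47.6 CPM. Cd80, a costimulatory ligand raised on memory B cells, was at 5.25, 2.68 and 1.78 CPM against 16.7, 18.7 and 36.2 CPM. Itgb1, the integrin beta 1 chain, was at 54.9, 35.3 and 39.7 CPM against 176, 98.2 and 127 CPM. For each of the 3 genes every IgD-positive library lay below every IgD-negative library. The log2 changes were -2.22 ± 0.18 for Bhlhe41 (adjusted p = 3.2e-07), -2.81 ± 0.34 for Cd80 and -1.59 ± 0.10 for Itgb1 (adjusted p = 7.8e-09). Of 5 B1 genes 4 fell (Bhlhe41, Zbtb32, Spn and Plscr1), with a median of -1.33, and Cd5 did not pass. For comparison, 2.56% of all genes tested were lower. Of the memory list, Cd80, Nt5e, Ahnak, Cxcr3, Pdcd1lg2 and Zbtb20 fell among 12 tested, none rose, and the median was -1.10. The most abundant gene of that list, Ccr6, did not pass, at 212, 248 and 300 CPM against 166, 255 and 300 CPM. Nt5e, the ecto-enzyme CD73, was at 3.36, 2.56 and 2.97 CPM against 17.3, 8.78 and 14.9 CPM. Nt5e and Cd80, low in IgD-positive cells, passed the filter on low counts only through IgD-negative cells, so their falls are descriptions. Itgb1 and Bhlhe41 passed with switched IgD-negative cells left out, while Cd80, Nt5e, Zbtb20, Pdcd1lg2, Spn and Plscr1 did not, at -1.44, -1.61, -0.50, -0.63, -0.94 and -0.68. Cxcr3 was lost without replicate 2 or 3 (-1.45 in both), Pdcd1lg2 and Spn without replicate 3 (-0.51 and -1.10), and Plscr1 without replicate 1 or 3 (-0.77 and -0.55). Without B cells holding a macrophage UMI, Pdcd1lg2 and Plscr1 lost their calls, at -0.60 and -0.63.

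**Figure D3:**
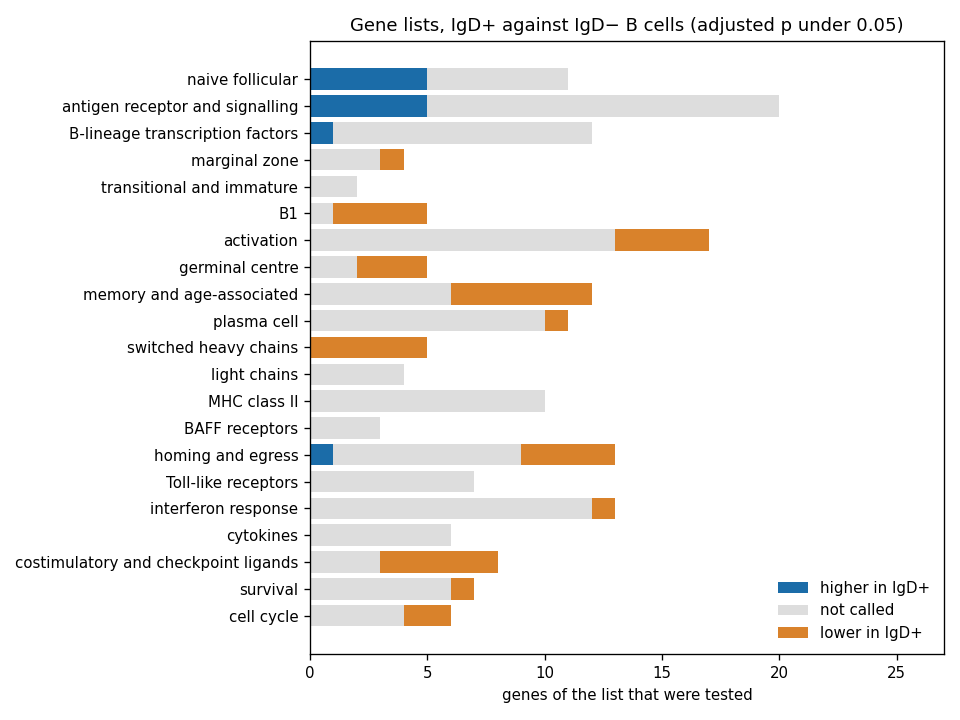
Number of genes tested in each of 21 gene lists, split into those higher in IgD-positive than in IgD-negative B cells, those not called and those lower (edgeR, adjusted p under 0.05). The naive follicular and antigen receptor lists held 5 higher genes each and none lower. All 5 switched heavy chains were lower, a direction bound to the Ighd gate.

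Some germinal centre genes were lower in IgD-positive cells. The 8 genes of the list summed to 37.0, 42.8 and 51.0 CPM against 149, 55.4 and 56.1 CPM, so the gap was mostly in replicate 1. Bcl6 was the most abundant of them in IgD-positive cells, at a mean of 24.3 CPM. In thinned cells Bcl6 averaged 23.6 CPM at 0 Ighd UMIs and 27.1, 17.1 and 38.6 CPM at 1, 2 to 3 and 4 or more. Rgs13, a regulator of chemokine receptor signalling in germinal centre B cells, was at 7.15, 2.91 and 2.97 CPM against 64.6, 4.39 and 7.1 CPM. Most of its IgD-negative signal was in replicate 1. Fas, the death receptor raised in germinal centres, was even across libraries, at 5.04, 6.88 and 6.33 CPM against 18.9, 18.1 and 20.6 CPM. Of 5 genes tested 3 fell, beside 2.56% of all genes tested, with log2 changes of -2.22 ± 0.36 for Rgs13 and -1.61 ± 0.23 for Fas (adjusted p = 0.00032). Rgs13 passed the filter on low counts only through IgD-negative cells, so its fall is a description. Rgs13 was lost without replicate 1, at -0.87, and Fas without switched IgD-negative cells, at -0.83. The proliferation gene Mki67 was at 3.99, 0.816 and 3.16 CPM against 24.5, 10.4 and 6.39 CPM (log2 change -2.43 ± 0.38, adjusted p = 0.00086). Top2a also fell, at -1.07 ± 0.25, but not without replicate 1, where it was at -0.53, and the other 4 cell cycle genes tested did not pass. Without switched IgD-negative cells Mki67 and Top2a lost their calls, at -1.43 and -0.88.

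Activation genes were expressed by the IgD-positive cells. Cd83 was at 382, 415 and 432 CPM, and Cd69, an early activation receptor, at 224, 262 and 264 CPM. Neither passed the test against IgD-negative cells, although Cd83 passed at -0.30 without replicate 1. Cd86, the ligand of CD28 on T cells, was at 179, 284 and 299 CPM against 207, 416 and 401 CPM. It was lower in IgD-positive cells within each library, at -0.38 ± 0.08 (adjusted p = 0.0083). Myc (-0.51 ± 0.11), Nfkbid (-0.55 ± 0.14) and Nr4a3 (-0.65 ± 0.13) fell as well, so that 4 of 17 activation genes fell, none rose, and the median was -0.27, beside 2.56% of all genes tested called lower. All 4 lost their calls without replicate 3, at -0.37, -0.52, -0.42 and -0.42 in the order named, and Cd86, Myc and Nfkbid also without replicate 2, at -0.31, -0.37 and -0.44. Without switched IgD-negative cells Cd86 and Nr4a3 were lost, at -0.23 and -0.54. With the study's cell filter Nfkbid changed direction, to 0.061, and did not pass (edgeR adjusted p = 0.98). Of 8 costimulatory and checkpoint ligands tested, 5 fell (Cd80, Cd86, Cd274, Pdcd1lg2 and Nectin2). Nectin2 and Cd80, low in IgD-positive cells, can have passed the filter on low counts only through IgD-negative cells, so their falls are descriptions. Cd274, which encodes the PD-1 ligand PD-L1, was at 33.2, 40.1 and 33.8 CPM against 43.4, 62.6 and 76.7 CPM (-0.72 ± 0.14, adjusted p = 0.0048), and lost its call without replicate 3, at -0.51. Pvr, which encodes the TIGIT and CD226 ligand CD155, was at 8.41, 4.2 and 6.92 CPM against 5.57, 5.49 and 2.84 CPM and did not pass (0.44 ± 0.36, adjusted p = 0.7). Nectin2, another ligand of TIGIT, was at or below 1.47 CPM in IgD-positive cells and its call was lost without replicate 3, at -2.11, and without switched IgD-negative cells, at -2.58.

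Antigen presentation genes were high in both B-cell classes and far above T cells. The class II chain H2-Aa was at 4699, 6404 and 6309 CPM in IgD-positive cells, 4625, 7412 and 7434 CPM in IgD-negative cells and 325, 127 and 245 CPM in T cells. Cd74, the invariant chain that guides class II molecules to the peptide-loading compartment, was at 8653, 13329 and 12520 CPM. None of 10 class II genes passed the test between the B-cell classes, with a list median of 0.03, and H2-Aa passed at -0.19 when replicate 1 was left out. The 3 BAFF receptor genes tested did not pass either. Tnfrsf13c, the receptor through which BAFF keeps mature B cells alive, was at 302, 310 and 330 CPM against 304, 373 and 382 CPM (-0.14 ± 0.07, adjusted p = 0.44). No gene was called among 7 Toll-like receptor genes, 6 cytokines and, in the survival list, 6 of 7, where Bcl2a1b fell (-0.53 ± 0.09, adjusted p = 0.0012). Of 13 homing and egress genes 1 rose, and Itgb1, Gpr183, Itgb7 and Cxcr3 fell, beside 0.921% of all genes tested that rose and 2.56% that fell. Gpr183, which guides B cells to the outer follicle, was at 122, 110 and 99.7 CPM against 125, 177 and 231 CPM, and lost its call without replicate 3, at -0.36. Itgb7 lost its call without replicate 1 or 3, at -0.60 and -0.46. Without switched IgD-negative cells both lost their calls, at -0.38 for Gpr183 and -0.45 for Itgb7. Of 12 B-lineage transcription factors only Mef2c, a factor downstream of the antigen receptor, passed, at 1378, 923 and 922 CPM against 1091, 781 and 791 CPM (0.29 ± 0.06, adjusted p = 0.0071), and it did not without replicate 2 or 3, at 0.29 and 0.30.

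Regardless of list, the 10 largest rises among genes with at least 50 CPM included Ifi214, Slamf6, Cd55, Fcrla, Ifi209, Lrrk2, Glcci1, Cr2 and Zfp608. Ifi214, a member of the interferon-inducible p200 family, was at 47.9, 107 and 107 CPM against 23.4, 59.3 and 57.5 CPM (0.94 ± 0.11, adjusted p = 2.3e-05). Its level changed with the library in both classes, and within each library it was higher in IgD-positive cells. Slamf6, a homophilic receptor of the SLAM family, was at 101, 86.7 and 81.5 CPM against 62.9, 56.5 and 43.3 CPM (0.74 ± 0.10, adjusted p = 0.00031). Fcrla, an intracellular immunoglobulin-binding protein of B cells, was at 186, 181 and 148 CPM against 139, 103 and 85.9 CPM (0.69 ± 0.10, adjusted p = 0.00037). For Slamf6 and Fcrla the classes did not overlap. Lrrk2 was lost without replicate 2 (0.45) and Zfp608 without replicate 3 (0.62). Without switched IgD-negative cells Ifi209, Lrrk2, Cr2 and Zfp608 lost their calls, at 0.43, 0.57, 0.34 and 0.42.

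The 10 largest falls among genes with at least 50 CPM were Lyz2, Igha, Ighg1, Apoe, Fgl2, Ighg2b, S100a6, Emb, Lgals1 and Basp1. Basp1 was at 54.4, 60.9 and 67.2 CPM against 163, 189 and 237 CPM (-1.65 ± 0.09, adjusted p = 1.7e-09), but did not pass without switched IgD-negative cells, at -0.66 (edgeR adjusted p = 0.19). Lyz2 did not pass there either, at -3.03. Lgals1, which encodes galectin-1, was at 26.1, 16.4 and 19.8 CPM against 91.3, 52.7 and 68.8 CPM, and T cells were above both at 526, 247 and 236 CPM. Lyz2 and Apoe are known for their expression in macrophages, and they were treated with the markers of that cell type. Lyz2 was at 4.62, 0.583 and 0.593 CPM in IgD-positive cells against 36.7, 1.1 and 163 CPM in IgD-negative cells. Lyz2 passed the filter on low counts only through IgD-negative cells, so its fall is a description. Its UMIs sat in very few cells, with all 66 of the IgD-negative class of replicate 1 in 1 cell and the 229 of replicate 3 in 4 cells. Apoe was at 111, 57.8 and 63.7 CPM against 309, 598 and 480 CPM, and at 2.38, 2.59 and 1.93 CPM in T cells. It was found in 7.43%, 6.7% and 6.31% of IgD-positive cells, and the top 1% of cells held 59.5%, 63.5% and 66.8% of its UMIs. In IgD-negative cells Apoe was found in 16.7%, 24.6% and 20.3% of cells, and the top 1% held 21%, 19.8% and 19.2% of its UMIs. The 9 macrophage genes summed to 123, 66.1 and 72.2 CPM in IgD-positive cells and to 358, 609 and 698 CPM in IgD-negative cells, with Apoe the most abundant and C1qc at 0 in both. Adgre1 and Csf1r were at or below 1.26 CPM in IgD-positive cells. Leaving out every B cell with a UMI of any of 8 macrophage genes other than Apoe gave 85 higher and 202 lower genes. The part of these markers in the difference between classes was not tested further.

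Markers of other cells were low in the IgD-positive class. The 10 T-cell genes summed to 66.2, 71.4 and 69.0 CPM against 4630, 3980 and 4084 CPM in T cells, with Lck, which B cells can also express, the most abundant. Endocrine genes summed to 83.4, 15.4 and 3.76 CPM and were close to the 80.7, 19.8 and 3.55 CPM of IgD-negative cells in each library. None of the genes tested in the T-cell, dendritic, NK, endocrine or erythroid and stromal lists was called between the B-cell classes, and no exocrine gene was abundant enough to be tested. A doublet score placed 9, 3 and 0 IgD-positive cells among the highest 7.6% of their libraries.

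The level of Ighd within the gate gave a graded view of the same genes. B cells thinned to 2000 UMIs were divided by their Ighd count into 1247 cells with 0, 702 with 1, 526 with 2 to 3 and 69 with 4 or more. Fcer2a averaged 96.0, 123, 158 and 189 CPM over libraries in that order. Cd79b averaged 536, 631, 800 and 906 CPM, although replicate 1 stayed between 511 and 557 CPM and only replicates 2 and 3 rose. Ighg2b averaged 70.7 CPM at 0 Ighd UMIs and 12.8 and 17.4 CPM at 1 and at 2 to 3, so that a gap fell between the cells just outside and just inside the gate. It was at 0 CPM with 4 or more. Itgb1 had the same drop, at 86.4, 35.3 and 40.5 CPM, and was lower again at 13.0 CPM with 4 or more. Cd86 averaged 301, 269, 242 and 220 CPM. Cr2 did not follow one direction, at 68.9, 75.7, 85.7 and 47.9 CPM. These are descriptions, since Ighd chose the bins, and the last bin rests on few cells.

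**Figure D4:**
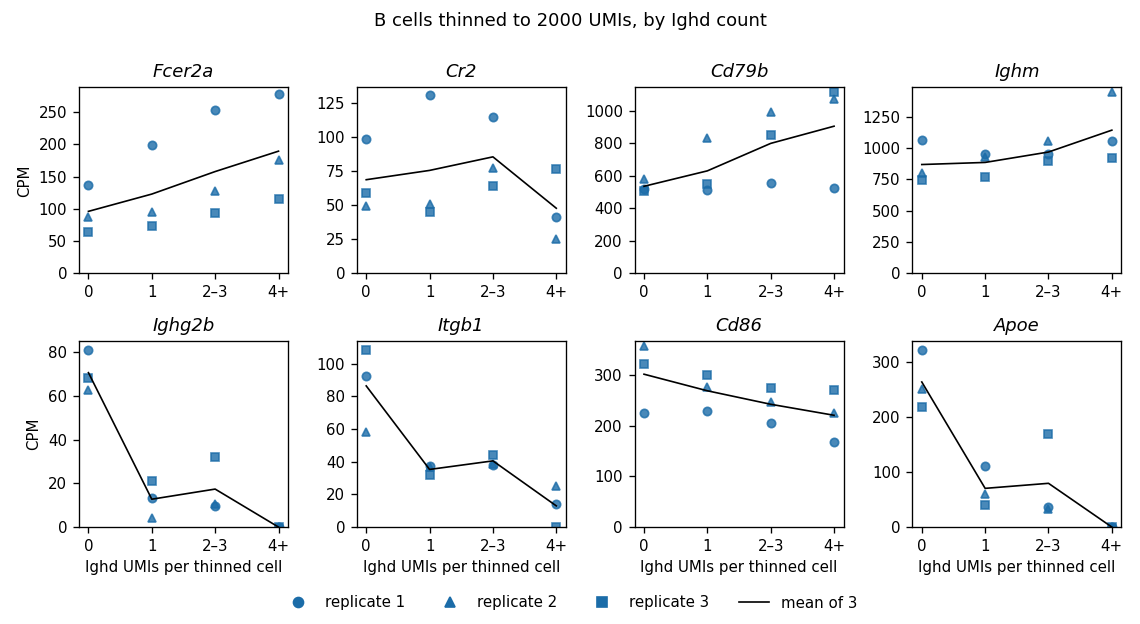
Level of 8 genes (CPM) in B cells thinned to 2000 UMIs, by the number of Ighd UMIs in the cell; points are libraries and the line is their mean. Fcer2a rises in the mean from 96.0 to 189 CPM, and Ighg2b drops from 70.7 CPM at 0 to 12.8 CPM at 1 Ighd UMI.

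Against T cells, 6308 of 11966 genes tested (52.7%) were called, 2929 higher (24.5%) and 3379 lower (28.2%) in IgD-positive cells. B and T cells were separated by Cd79a, Ms4a1 and Cd3 genes, so lineage genes were bound to differ and are given as a description of identity. The 10 largest rises among genes with at least 50 CPM were Ebf1, Pax5, Bank1, Fcmr, Vpreb3, Scd1, B3gnt7, Mef2c, Iglc2 and Fcer2a. Ebf1, which sets the B-cell fate, was at 1070, 995 and 1005 CPM against 4.49, 1.84 and 1.99 CPM (log2 change 8.76 ± 0.25, adjusted p = 9.4e-07). Pax5, which maintains that fate, was at 201, 118 and 110 CPM against 0.476, 0.245 and 0.416 CPM. Under the same limit Cd8b1, Chst2, Thy1, Cd28, Tnfsf8, Ikzf2, Bcl11b, Sh2d1a, Tdrp and Nrn1 fell the most, Cd8b1 at -8.13 ± 0.28. Without replicate 2 the genes called higher numbered 1835.

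By list, all 10 class II genes, all 4 light chains, all 3 BAFF receptors and 19 of 20 antigen receptor genes were higher in IgD-positive cells than in T cells. Of 12 B-lineage factors 11 were higher and Ets1 was lower. Of 11 naive follicular genes, Fcer2a, Cr2, Cxcr5, Foxp1, Btla and Zfp318 were higher, and Ccr7, Klf2 and Il4ra were lower in IgD-positive cells, beside 24.5% of all genes tested that were higher and 28.2% that were lower. Klf2, which drives lymphocyte egress and recirculation, was at 242, 129 and 109 CPM against 355, 504 and 463 CPM (-1.47 ± 0.30, adjusted p = 0.0059). Its target S1pr1 was at 139, 111 and 85.6 CPM against 265, 389 and 354 CPM (-1.53 ± 0.22, adjusted p = 0.0011). Ccr7 was lower at -0.37 ± 0.10 (adjusted p = 0.02) and lost its call without replicate 2, at -0.40. Ccr6, a chemokine receptor of mature B cells, was at 212, 248 and 300 CPM against 5.58, 3.43 and 4.49 CPM. Of 9 Toll-like receptor genes 7 were higher, among them Tlr7, which senses single-stranded RNA, at 7.78, 10 and 12.7 CPM against 0.613, 1 and 1.21 CPM. Of 17 activation genes 10 were higher and 2 lower, and all 5 NK markers and 7 of 9 cell cycle genes were lower.

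Most genes of an interferon-response list were lower in IgD-positive cells than in T cells, and they varied between libraries. Of 13 such genes 10 were lower than in T cells and none was higher, with a median log2 change of -1.37, beside 28.2% called lower, 24.5% called higher and a median of -0.02 over all genes tested. Ifi214 and Ifi209, interferon-inducible p200 genes outside the list, were higher in IgD-positive cells than in T cells, at 1.68 ± 0.09 (adjusted p = 1.3e-05) and 1.51 ± 0.09 (adjusted p = 2.0e-05). Gbp2, an interferon-induced GTPase, was at 20.6, 49 and 48.3 CPM against 92.4, 326 and 295 CPM (-2.46 ± 0.14, adjusted p = 1.4e-05). Against IgD-negative cells, where 2.56% of all genes tested were lower, only Gbp2 of the 13 passed (-0.53 ± 0.12, adjusted p = 0.014), and it did not without replicate 2 or 3, at -0.52 and -0.54, or without switched IgD-negative cells, at -0.24. The 13 genes summed to 322, 796 and 808 CPM in IgD-positive cells and to 818, 1981 and 1955 CPM in T cells, so that replicate 1 was the lowest in both. Ifit3 was at 4.2, 53.5 and 60.7 CPM in IgD-positive cells and at 6.6, 52.7 and 67.4 CPM in T cells.

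**Figure D5:**
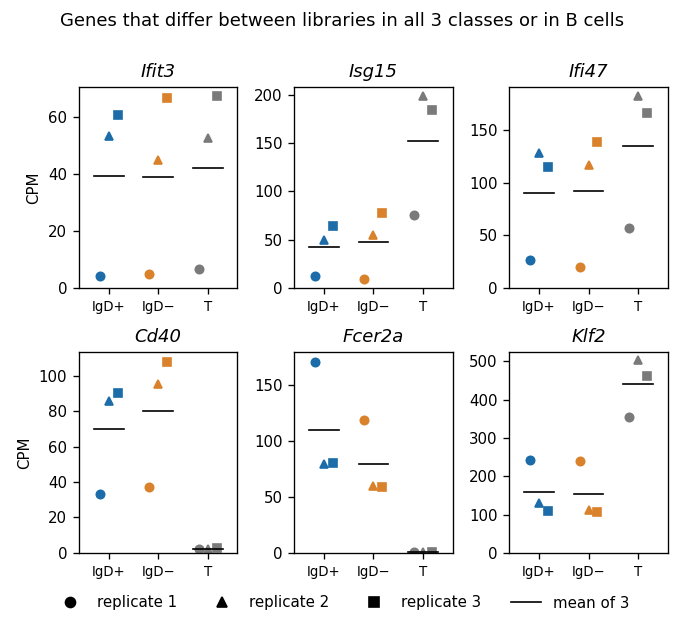
Level (CPM) of 6 genes chosen after their values were seen, in 3 cell classes; each point is 1 library and the bar is the mean of 3. Ifit3, Isg15 and Ifi47 are lowest in replicate 1 in all classes, whereas Cd40 is lower and Fcer2a and Klf2 are higher in replicate 1 in both B-cell classes.

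Other genes also separated replicate 1 within IgD-positive cells. Irgm1, a GTPase induced by interferon, was at 23.1, 150 and 134 CPM. Cd40, the receptor for T-cell help, was at 33.4, 85.7 and 90.2 CPM. In the other direction, Fosb, an immediate early gene, was at 78.2, 17.7 and 20.4 CPM and Egr1 at 89.5, 27.6 and 28.7 CPM. BC004004 was at 510, 32.2 and 32.4 CPM, and at 446, 24.5 and 24.7 CPM in T cells. With 1 condition and 3 libraries these are values without a test, and mitochondrial share, insulin RNA and depth moved with them.

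By the ratio of variance to mean, cells of the IgD-positive class varied most in a handful of genes. Over the 3771 genes with at least 0.05 UMIs per thinned cell in every library, the median ratio of variance to mean was 1.06. The 10 highest named genes were Apoe at 8.78, Malat1 at 6.96, Iglc1 at 6.31, Il1b at 5.12, Igkc at 5.07, Tmsb4x at 4.46, Vim at 3.96, Fth1 at 3.88, Ly6a at 3.87 and Egr1 at 3.83. The ratio was not adjusted for the level of a gene. Malat1 averaged 50.7, 46.7 and 48.1 UMIs per thinned cell, and Apoe 0.209, 0.108 and 0.12. Il1b, the cytokine interleukin 1 beta, was found in 8.37%, 7.86% and 9.19% of IgD-positive cells, with 34, 179 and 69 UMIs in the highest cell of each library. Iglc1, a lambda constant gene, was found in 17.3%, 16.3% and 12.6% of IgD-positive cells, and the top 1% of cells held 36.1%, 55.2% and 53.2% of its UMIs. Fcer2a was spread more evenly, with 7.41%, 11.1% and 12.1% of Fcer2a UMIs in the top 1% of cells.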

How the data were processed

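Islets of wild-type NOD females were dispersed, live CD45+ cells sorted, and 3 libraries made with 10x Genomics 3′ chemistry. The authors aligned reads to mm10 with Cell Ranger 6.0.1 and deposited raw UMI counts per gene and cell. Libraries held 33851381, 74775394 and 80806452 UMIs, and the IgD-positive sums 4757486, 8577132 and 5056973. Counts were summed per library and class (Python 3.11.15) and tested with edgeR 4.0.16 (quasi-likelihood, TMM, filterByExpr, library as a block, Benjamini-Hochberg at 0.05), with gate genes left out of calls. The classes share the mice of their library, which makes them pairs. Deviations from class means correlated at 0.138 to 0.463 (mean 0.318) in 9 same-library pairs and at -0.406 to 0.235 (mean -0.15) in 18 pairs of different libraries. Deviations sum to 0 within a class, so positive same-library values pull the other pairs below 0. The value of those other pairs is therefore no separate evidence of pairing. With library as a block, p-values measure the spread of the class difference over 3 pooled samples, after differences between those samples are taken out. DESeq2 1.42.0 was an alternative. Members and gene lists were chosen with earlier results of these data known.

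In data simulated for the comparison of B-cell classes (9450 genes, library as a block), 79% of genes changed by 1 on the log2 scale and 96% of those changed by 2 were recovered, with 4 false calls. The simulation gave all genes 1 dispersion and both classes of a library the same library effect, so its rates need not hold for the data. Changes under 1 were not simulated, although 83 of the 87 higher calls were under 1. Named genes were the gate genes, those of fixed lists, the 10 largest changes in each direction (adjusted p under 0.05, at least 50 CPM, same sign in all libraries; no immunoglobulin variable, Gm or Rik genes) and the 10 most variable. Doublets were scored with Scrublet in scanpy 1.11.5 and kept in the main analysis. Some genes of the lists are counted but not reported here by name.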

Additional observations from a re-analysis of the deposited data

How the results depend on the processing

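The comparison of B-cell classes depended on the settings more than the comparison with T cells. The 329 genes called (87 higher, 242 lower) became 96 with DESeq2 (20 higher, 76 lower), 551 with no filter on low counts (241 higher), 90 with the gate on thinned cells (28 higher, 62 lower), 36 with the study's cell filter (11 higher, 25 lower), 77 with all 3 classes in 1 fit (10 higher, 67 lower) and 73 without switched IgD-negative cells (18 higher, 55 lower). Without the replicate block 20 were called, 0 higher and 20 lower. Leaving out 1 library gave 123 to 505 genes, 21 to 222 higher and 102 to 283 lower. The other settings stayed between 287 and 374. Against T cells, 6308 genes became 3968 with the gate on thinned cells (1825 higher, 2143 lower). Leaving out 1 library gave 4207 to 7895, 1835 to 3727 higher and 2372 to 4168 lower. The IgD-positive share of 77.1% became 50.9% on thinned cells and 56.4% with at least 2 Ighd UMIs, and was 75.4% to 78.9% without 1 library. The cause was not tested.

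Among 64 genes followed against IgD-negative cells, 689 values kept direction and call, 231 lost the call, 5 gained it and 4 reversed. Calls were lost by 43 genes without the replicate block, 31 with all 3 classes in 1 fit and 30 with the study's cell filter. With DESeq2 27 genes lost the call, and with the gate on thinned cells 24. The losses in these settings are not listed by gene above. The switched chains and Ighm were not followed without switched IgD-negative cells, since they select those cells. The reversals were Nfkbid (0.061) with the study's cell filter, H2-Aa (0.00192) with the gate on thinned cells, and Cd74 (0.018 and 0.048) with no filter and with that gate. Against T cells, 559 of the values for 52 genes held, 5 lost the call, 3 gained it and 0 reversed. Settings that changed the Cd3 limit, left out switched IgD-negative cells or left out cells with a macrophage UMI were chosen after seeing the data.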
